A study of Mus musculus with 6 samples.

Results

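Macrophages in the bone marrow release proteins on which myeloma cells, the malignant form of antibody-secreting plasma cells, draw for growth, survival and lodging. The transcripts of 10 such secreted factors, chosen by name, were followed here: Tnfsf13 (APRIL), Tnfsf13b (BAFF), Igf1, Hgf, Vegfa, Il10, Il6, Cxcl12, Spp1 (osteopontin) and Nrg1. Of these, 8 had a probe set annotated to their symbol alone and were among the 22180 genes tested. The probe set that holds Tnfsf13 is annotated to other genes as well, and no probe set in the annotation used is assigned to Spp1, so neither is given a value here. Each of the 8 measured factors had a single probe set of its own.

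The arrays came from cultures of bone marrow macrophages of C57BL/KaLwRij mice, a strain that accepts the 5TGM1 mouse myeloma line. Marrow cells of 3 mice were grown for 7 days with M-CSF, the ligand of the receptor CSF1R, and were then kept overnight with 5TGM1-luc cells, which carry luciferase. Next came an antibody against mouse CSF1R at 0.5 nM for 3 days, or a control IgG over the same time, at a dose not stated separately. Each condition has 3 arrays, numbered as replicates, which are not taken here to be separate cultures. In both conditions the cells were washed 4 times to remove the myeloma cells before RNA was taken. Both conditions therefore share M-CSF differentiation and exposure to myeloma cells. The labels do not tie an array to a mouse, and p-values therefore measure the spread between these arrays, which may be technical.

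The factors act through several receptors, some of them shared. BAFF and APRIL bind the receptors TACI and BCMA on plasma cells, and BAFF also binds BAFF-R. IL-6 is the classical myeloma growth factor, while IGF-1, HGF (through MET), IL-10 and neuregulin 1 (through ERBB3 with ERBB2) can drive growth and survival signals in various cells. CXCL12 holds CXCR4-bearing cells in the marrow, VEGF-A promotes vessel growth, and osteopontin binds CD44 and integrins.

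Values are log2 of deposited array intensities, and a change is the antibody mean minus the IgG mean. A gene was called when its Benjamini-Hochberg adjusted p in limma, fitted over all genes, was under 0.05. Arrays of the same condition correlated at 0.992 to 0.993 over all probe sets and those of different conditions at 0.984 to 0.985. Of all genes tested, 28.5% were called, 12.5% higher and 16% lower with the antibody. Under cyclic loess scaling, 59.2% of the called genes were higher in place of 43.8%. As a guide to background, the 95th percentile of the mean signal of 1394 olfactory and vomeronasal receptor genes was 4.92. All 9 measured macrophage markers lay above this guide in both conditions, and so did 10 of 11 plasma cell markers. The cells behind the plasma cell marker signal were not tested. Of 12 stromal markers, 9 lay above it in at least 1 condition. Among 8 neutrophil, 4 T and NK cell, 3 B cell and 4 dendritic cell markers, the numbers above it were 1, 0, 1 and 1.

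Of the 8 measured factors, 4 were higher with the antibody (Nrg1, Hgf, Igf1 and Vegfa), 2 were lower (Il10 and Cxcl12), and 2 were not called (Tnfsf13b and Il6). The share of all genes called was 28.5%, and of the 13116 genes above the guide in at least 1 condition it was 46.1%. The values of the 2 conditions did not overlap for 6 of the 8 factors, against 39.3% of all genes, dim ones included. The factors were chosen with earlier results of these data known, so these shares are no test of the list. The median change of the 8 was 0.20, beside −0.02 over all genes. No filter on low signal was set, and 7 of the 8 factors lay above the guide in both conditions, the exception being Il6.

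The sequence upstream of the start site is shown for those called factors that had an entry in the RefSeq promoter table (GRCm38.p6). There were 12 promoters for 8 of the 10 factors in that table, and none for Nrg1 or Il10. Each line gives the 250 bases before the start site, 5′ to 3′, of the first listed promoter, and capitals mark matches on either strand to any of the 7 motifs searched.

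Hgf, chr5:16553245-16553494, plus strand: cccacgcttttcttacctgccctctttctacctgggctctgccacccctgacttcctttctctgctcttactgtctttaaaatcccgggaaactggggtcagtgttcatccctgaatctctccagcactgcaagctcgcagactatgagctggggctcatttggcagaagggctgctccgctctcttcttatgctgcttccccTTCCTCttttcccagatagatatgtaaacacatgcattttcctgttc
Igf1, chr10:87860861-87861110, plus strand: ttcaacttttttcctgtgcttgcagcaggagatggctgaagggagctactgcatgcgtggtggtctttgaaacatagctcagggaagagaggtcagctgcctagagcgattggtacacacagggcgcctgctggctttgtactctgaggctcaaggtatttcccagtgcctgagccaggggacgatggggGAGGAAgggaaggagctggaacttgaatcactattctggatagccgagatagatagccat
Vegfa, chr17:46032378-46032627, minus strand: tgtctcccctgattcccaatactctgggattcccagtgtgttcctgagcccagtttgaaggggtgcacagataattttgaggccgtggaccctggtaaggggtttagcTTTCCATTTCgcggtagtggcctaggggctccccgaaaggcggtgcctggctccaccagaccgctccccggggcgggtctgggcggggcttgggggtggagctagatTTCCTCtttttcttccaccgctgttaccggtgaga
Cxcl12, chr6:117168285-117168534, plus strand: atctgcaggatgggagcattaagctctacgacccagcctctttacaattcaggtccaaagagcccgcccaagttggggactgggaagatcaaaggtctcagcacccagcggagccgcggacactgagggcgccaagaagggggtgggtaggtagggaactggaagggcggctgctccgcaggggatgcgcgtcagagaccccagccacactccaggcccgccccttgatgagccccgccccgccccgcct

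The motifs were the PU.1 core GAGGAA, NF-kB (GGGA, then TTCC after 2 free bases), the interferon-stimulated response element (GAAA, then GAAA after 2 free bases), STAT TTCNNNGAA, C/EBP TTGCNNAA, the hypoxia response core ACGTG and the TATA box TATAAA. Searches covered the 250 bases before and the 50 after each start site. The PU.1 core, named for the ETS factor of myeloid cells, began at −47 from the start site for Hgf, at −60 for Igf1 and at −35 for Vegfa. Its match is read on the opposite strand in Hgf and Vegfa, as TTCCTC. It was present in 28.3% of 32851 promoters of the same length. Vegfa also held an interferon-stimulated response element match at −142, a motif found in 3.44% of promoters. The Cxcl12 window, with a GC content of 64.7%, held no match to any of the 7, against 51.3% GC for Hgf, 52.3% for Igf1 and 62% for Vegfa.

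Nrg1, which encodes neuregulin 1, a ligand of the ERBB receptor kinases, changed most among the factors. Its log2 values were 8.76, 8.48 and 8.87 on the antibody arrays, against 6.09, 6.12 and 5.99 on the IgG arrays. All 3 antibody values lay more than 2 log2 units above every IgG value. The means were 8.70 ± 0.20 with the antibody and 6.06 ± 0.07 with IgG (SD, n = 3 each). The rise of 2.64 (SE 0.10; 6.24-fold) ranked 10 among 22180 genes by signed change (limma adjusted p = 1.36e-05).

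Hgf, the gene of hepatocyte growth factor, came next. The antibody arrays gave 7.77 on all 3, against 6.82, 6.73 and 6.84 on the IgG arrays. The conditions were well apart, and the antibody arrays differed from each other only in the fourth decimal. The rise was 0.98 (SE 0.05; 1.97-fold; limma adjusted p = 2.82e-05), rank 670 by signed change. In bulk RNA such as this, more or fewer cells of a type and more or less RNA per cell cannot be told apart.

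Igf1, which encodes insulin-like growth factor 1, read 9.70, 9.67 and 9.64 with the antibody, against 9.20, 9.23 and 9.28 with IgG. Every antibody array was above every IgG array. The means were 9.67 ± 0.03 and 9.24 ± 0.04 (SD, n = 3 each), with a rise of 0.43 (SE 0.05; 1.35-fold; limma adjusted p = 0.000783).

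Vegfa, the gene of vascular endothelial growth factor A, was at 10.07, 10.14 and 10.16 on the antibody arrays, against 9.88, 9.86 and 9.93 on the IgG arrays. The conditions did not overlap, but the rise was the smallest of the 4, at 0.24 (SE 0.05; 1.18-fold; limma adjusted p = 0.0123). Its 95% interval ran from 0.12 to 0.36 on the log2 scale.

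The 4 rises were measured on arrays where macrophage markers were also higher. All 9 of them were called higher, against 12.5% of all genes, with a median change of 1.24. Their summed intensity was 28280 to 29160 with the antibody and 15740 to 16450 with IgG. Cd68, a lysosomal glycoprotein of macrophages, rose by 0.33 (SE 0.04) and the lysozyme gene Lyz2 by 0.78 (SE 0.05). Csf1r, the gene of the receptor that the antibody targets, is also in this list. It rose by 1.12 (SE 0.05) and is named with its value known. Among the factors, Nrg1 alone rose by more than the 1.74 of the highest marker, Cd14. Hgf (0.98) and Igf1 (0.43) lay within the range of the markers, and Vegfa (0.24) below the 0.33 of the lowest, Cd68. The part of macrophage content in these rises was not tested.

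**Figure D1:**
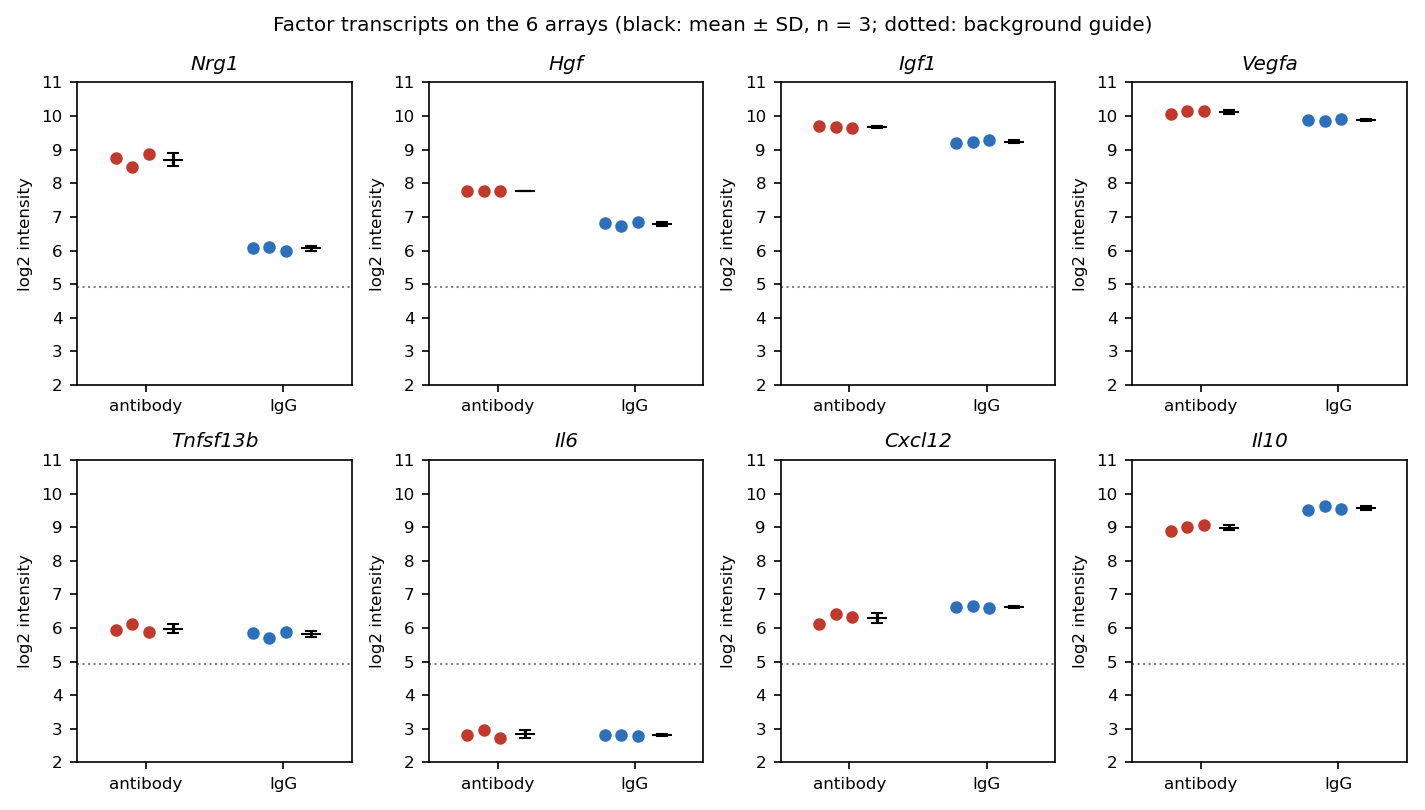
Log2 intensity of the 8 measured factor transcripts on each array (points; antibody red, IgG blue), with mean ± SD of 3 arrays in black and the background guide of 4.92 dotted. Nrg1 and Hgf stand clearly higher with the antibody, Il10 and Cxcl12 lower, and Il6 lies below the guide in both conditions.

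Il10, which encodes the regulatory cytokine IL-10, was the factor with the largest fall. It read 8.90, 9.003 and 9.05 with the antibody, against 9.51, 9.62 and 9.55 with IgG. Every antibody array was below every IgG array. The means were 8.98 ± 0.08 with the antibody and 9.56 ± 0.06 with IgG (SD, n = 3 each). The change was −0.58 (SE 0.06; 1.49-fold higher in IgG; limma adjusted p = 0.000652), rank 309 among all genes counted from the largest fall.

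Cxcl12, the marrow-retention chemokine, read 6.13, 6.42 and 6.33 on the antibody arrays, against 6.61, 6.65 and 6.61 on the IgG arrays. Antibody replicate 1 was the lowest, and the conditions did not overlap. The change was −0.33 (SE 0.08; limma adjusted p = 0.0215). The call was lost without IgG replicate 1 (adjusted p = 0.066), IgG replicate 2 (adjusted p = 0.0762) or IgG replicate 3 (adjusted p = 0.0638), and under cyclic loess (adjusted p = 0.054), while the change stayed negative in each of these fits.

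Both falls were seen on arrays where other cell types' markers were lower too, and where 16% of all genes were called lower. Of 11 plasma cell markers, 8 were called lower and 0 higher, with a median of −0.33, and their summed intensity was 10360 to 10480 with the antibody and 13580 to 14290 with IgG. Tnfrsf17 was the plasma cell marker below the guide. Xbp1, the secretory transcription factor of plasma cells, had a change of −0.30 (SE 0.05) and Pou2af1, for a transcriptional coactivator of B lineage cells, of −0.63 (SE 0.05). Of 12 stromal markers, 6 were called lower and 1 higher, with a median of −0.35 and summed intensities of 1136 to 1190 with the antibody and 2112 to 2180 with IgG. Dcn, Lum and Lepr lay below the guide in both conditions. Acta2, which encodes smooth muscle actin, had a change of −1.20 (SE 0.05) and the matrix gene Postn of −1.08 (SE 0.04). The part of plasma cell or stromal RNA in the changes of Il10 and Cxcl12 was not tested.

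Tnfsf13b, the gene of the B cell survival factor BAFF, read 5.93, 6.13 and 5.87 with the antibody, against 5.85, 5.72 and 5.88 with IgG. The values overlapped. The difference of 0.16 (SE 0.08) did not pass the test (limma adjusted p = 0.242), and its 95% interval ran from −0.05 to 0.36. Il6, the gene of interleukin 6, read 2.83, 2.96 and 2.72 with the antibody, against 2.83, 2.82 and 2.78 with IgG. These values overlap and lie far below the guide, so they do not show whether Il6 changed (difference 0.02, SE 0.07; limma adjusted p = 0.857).

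**Figure D2:**
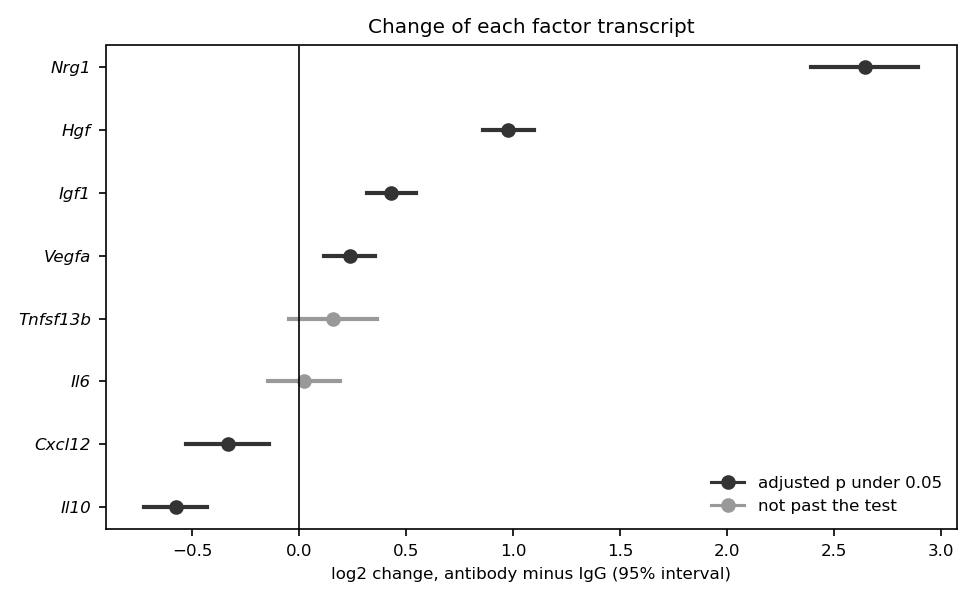
Log2 change of each factor transcript, antibody minus IgG, with limma's 95% interval (dark: adjusted p under 0.05; grey: not past the test). The intervals of Nrg1, Hgf, Igf1 and Vegfa lie above 0, those of Cxcl12 and Il10 below it, and those of Tnfsf13b and Il6 include it.

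The genes with the closest pattern over the 6 arrays were sought for the factors with the largest rise and the largest fall, by Euclidean distance between values centred on each gene's mean, among 12290 other genes above the guide in at least 1 condition, predicted genes left out. For Nrg1 they were Clec4e, the gene of the glycolipid receptor Mincle (distance 0.22), Aoah, for a lipopolysaccharide-inactivating enzyme (0.26), and the interferon-induced GTPase gene Iigp1 (0.29). Their changes were 2.74, 2.68 and 2.55 beside 2.64 for Nrg1. For Il10 they were Pbk, a mitotic kinase gene (distance 0.06), Tinag, which encodes a basement membrane antigen (0.07), and Top2a, for the DNA topoisomerase of dividing cells (0.07). Their changes were −0.55, −0.57 and −0.60 beside −0.58 for Il10. With 6 arrays in 2 conditions, this distance mainly measures a change of equal size.

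The receptors of the factors were measured on the same arrays. Of 27 receptor and co-receptor genes, 13 were called higher, 6 lower and 8 were not called. Their median change was 0.21 beside −0.02 over all genes. Of all genes 28.5% were called, and of those above the guide in at least 1 condition 46.1%. Tnfrsf17, the gene of BCMA, and Erbb4 lay below the guide in both conditions. Receptors outside the 5 largest changes and the 2 highest uncalled levels are named here to complete the list, with their values already known.

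Receptors for Il10 and Vegfa moved most. Il10ra, the ligand-binding chain of the IL-10 receptor, read 9.37, 9.38 and 9.39 with the antibody, against 7.66, 7.52 and 7.62 with IgG. It rose by 1.78 (SE 0.05; 3.43-fold; limma adjusted p = 8.67e-06), and the shared chain Il10rb rose by 0.68 (SE 0.05), on the arrays where Il10 was lower. Kdr, the main signalling receptor of VEGF-A, read 8.08, 8.12 and 8.18 with the antibody, against 6.70, 6.84 and 6.82 with IgG, a rise of 1.34 (SE 0.06). The VEGF co-receptor genes Nrp1 and Nrp2 rose by 1.26 (SE 0.04) and 1.25 (SE 0.05). Flt1, the other VEGF-A receptor gene measured, was at 5.43 ± 0.18 with the antibody and 5.22 ± 0.15 with IgG (SD, n = 3 each) and was not called. Kdr is also an endothelial gene. Of 6 other endothelial markers, 1 was called higher and 0 lower. The 1 was Vwf (1.00, SE 0.05), while Pecam1, above the guide in both conditions, was not called (0.11, SE 0.07). Both are named with their values known. Tek, Emcn and Esam lay below the guide in both conditions. The list's summed intensity, Vwf included, was 217 to 226 with the antibody and 174 to 178 with IgG.

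The receptors of IGF-1 differed in direction. Igf1r, its signalling receptor, had a change of −0.56 (SE 0.07; limma adjusted p = 0.00102), while the insulin receptor gene Insr rose by 0.88 (SE 0.07) and Igf2r, which clears IGF-2, by 0.31 (SE 0.05). Insr read 6.48, 6.53 and 6.53 with the antibody, against 5.76, 5.49 and 5.63 with IgG. Met, the HGF receptor gene, was at 4.69 ± 0.24 with the antibody and 5.00 ± 0.02 with IgG (SD, n = 3 each), near the guide, and was not called (limma adjusted p = 0.101). None of the neuregulin receptor genes was called by limma: Erbb2 differed by −0.09 (SE 0.07), Erbb3 by −0.18 (SE 0.13) and Erbb4 by 0.10 (SE 0.14).

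Receptors of BAFF and APRIL are best known from B lineage cells. Tnfrsf13b, which encodes TACI, had a change of −0.49 (SE 0.05) and Tnfrsf13c, which encodes BAFF-R, of −0.50 (SE 0.06), and both were called lower. Sdc1, the gene of the plasma cell proteoglycan syndecan-1, which binds APRIL and HGF, was called lower at −0.33 (SE 0.05). Sdc1 and Tnfrsf17 are also in the plasma cell marker list, and Sdc1 is itself among the 8 of 11 markers called lower. The part of plasma cell RNA in these falls was not tested.

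Cxcr4, the CXCL12 receptor gene, rose by 0.57 (SE 0.06; limma adjusted p = 0.000494), while Ackr3, for the scavenging receptor of CXCL12, was not called (0.16, SE 0.12). Il6ra, the IL-6 binding chain, rose by 0.49 (SE 0.05), and its signalling partner Il6st by 0.22 (SE 0.06). Of the osteopontin receptors, the CD44 gene (−0.38, SE 0.07) and the integrin chain gene Itgav (−0.43, SE 0.05) were called lower. Itgb1 (0.31, SE 0.08), Itgb3 (0.23, SE 0.05) and Itga9 (0.53, SE 0.10) were called higher, and Itga4 (−0.11, SE 0.04) was not called. The Il6st call was lost without antibody replicate 1 or 3 or IgG replicate 1 or 3 (limma adjusted p = 0.082, 0.0762, 0.0852 and 0.0695). That of Itgb1 was lost without IgG replicate 1 or 3 (limma adjusted p = 0.0804 and 0.0854). That of Itgb3 was lost without antibody replicate 1 (limma adjusted p = 0.0576) or IgG replicate 1 (0.0536), and that of Cd44 under cyclic loess (0.0511). With the replicate number as a block, the calls of Il6st, Itgb1 and Itgb3 were lost too (limma adjusted p = 0.0722, 0.0603 and 0.0601).

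**Figure D3:**
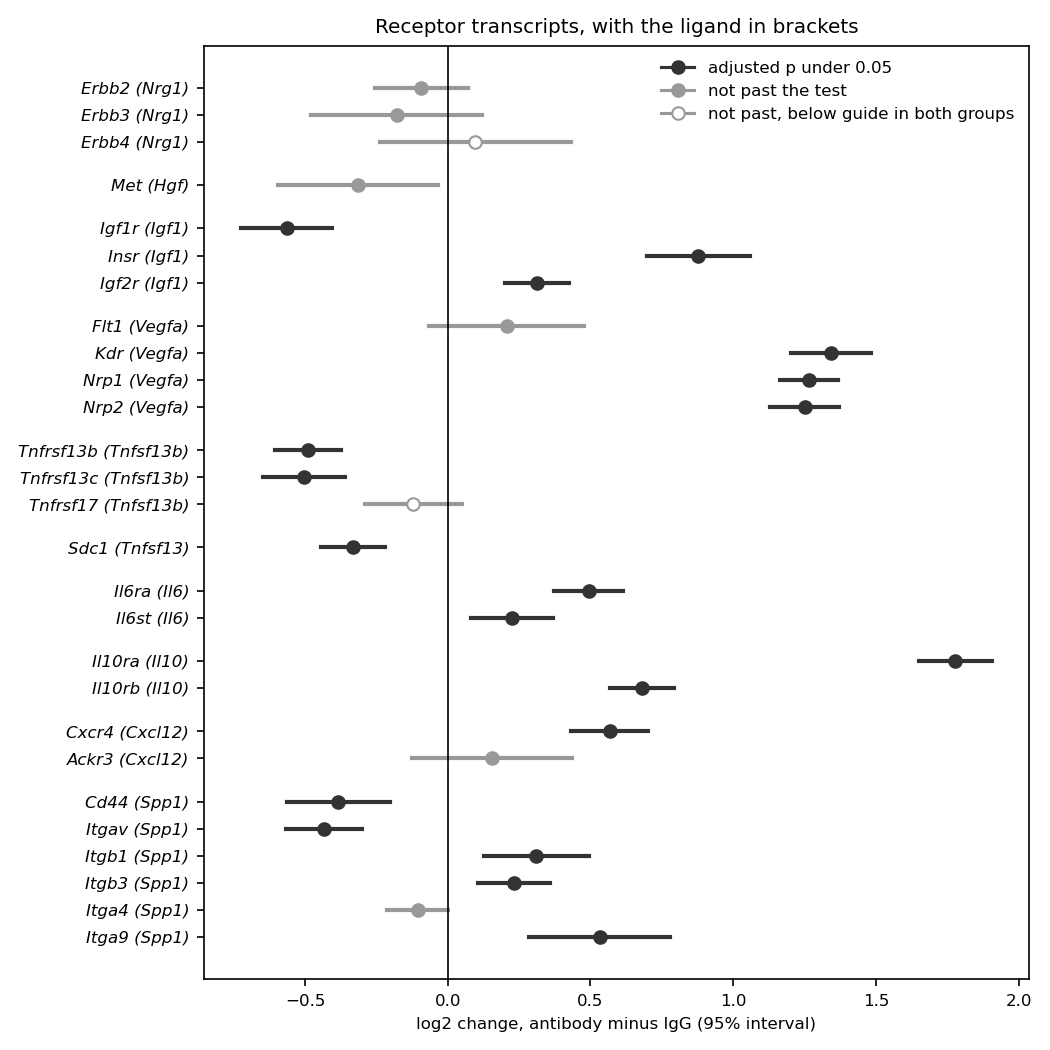
Log2 change of 27 receptor and co-receptor genes, antibody minus IgG, with limma's 95% interval, grouped by the ligand in brackets (dark: adjusted p under 0.05; grey: not past the test; open: not past the test and below the guide in both conditions). Il10ra, Kdr, Nrp1 and Nrp2 lie furthest to the right and Igf1r furthest to the left.

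Binding proteins, activating proteases and their inhibitors set how much of a factor is active. Of 24 such genes, 5 were called higher, 6 lower and 13 were not called, with a median change of −0.01. The share called was 28.5% of all genes and 46.1% of those above the guide in at least 1 condition. Thbs1, which encodes thrombospondin-1, an inhibitor of vessel growth, read 11.92, 12.04 and 11.91 with the antibody, against 10.66, 10.78 and 10.76 with IgG. It rose by 1.23 (SE 0.06; limma adjusted p = 2.73e-05). Around IGF-1, the binding protein gene Igfbp4 rose by 0.83 (SE 0.09). Pappa, whose protease product cleaves IGFBP-4, had a change of −0.45 (SE 0.07), Igfbp7 of −0.75 (SE 0.05) and Igfals, a subunit of the circulating IGF complex, of −0.45 (SE 0.07), and all 3 were called lower. Around HGF, named with their values known, the matriptase gene St14 (−0.44, SE 0.05) and the inhibitor gene Spint2 (−0.41, SE 0.05) were called lower. The inhibitor gene Spint1 (0.40, SE 0.08), the urokinase gene Plau (0.32, SE 0.06) and the convertase gene Furin (0.28, SE 0.05) were called higher. The sheddase genes Adam10 (11.28 ± 0.09 with the antibody and 11.48 ± 0.04 with IgG) and Adam17 (10.11 ± 0.06 and 10.08 ± 0.03; SD, n = 3 each) were not called, with limma adjusted p = 0.0508 for Adam10 and 0.712 for Adam17. Adam10 was called lower without antibody replicate 3 (limma adjusted p = 0.0156).

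Other ligands of the same families mostly did not pass the test. Of 27 measured, 2 were called higher, 3 lower and 22 were not called, with a median of −0.01, where 28.5% of all genes were called. In both conditions, 15 of these ligands lay below the guide. Osm, which encodes the IL-6 family cytokine oncostatin M, read 7.04, 7.31 and 7.17 with the antibody, against 5.91, 6.31 and 6.16 with IgG, a rise of 1.05 (SE 0.12; limma adjusted p = 0.000851). Mst1, the gene of an HGF-like protein, was called lower at −0.49 (SE 0.04), as was Hbegf, for a heparin-binding ligand of the EGF receptor, at −0.26 (SE 0.06). Pgf, the placental growth factor gene (0.70, SE 0.14), and Egf (−0.27, SE 0.07) were also called, but below the guide in both conditions. The Egf call was lost in 8 other fits, among them those without any 1 of the 3 antibody replicates (limma adjusted p = 0.094, 0.104 and 0.0885) or without IgG replicate 1 (0.073). That of Hbegf was lost without antibody replicate 1 (limma adjusted p = 0.0513), IgG replicate 1 (0.0501) or IgG replicate 2 (0.0502). Vegfb, a VEGF relative, read 9.67 ± 0.03 on antibody arrays and 9.54 ± 0.03 on IgG arrays, and Ctf1, for cardiotrophin 1, 6.83 ± 0.05 and 6.85 ± 0.05 (SD, n = 3 each). Neither was called.

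A further list held 22 other factors with reported roles in myeloma marrow. Beside 28.5% of all genes called, and 46.1% of those above the guide, it had 10 called higher, 1 lower and 11 not called. These factors had a median change of 0.20. Among them Il15, a growth factor of NK and T cells, read 8.34, 8.32 and 8.52 with the antibody, against 6.24, 6.35 and 6.22 with IgG, a rise of 2.12 (SE 0.07; limma adjusted p = 1.1e-05). Il1b, the inflammatory cytokine gene, rose by 3.35 (SE 0.10), Il18, of the same family, by 1.59 (SE 0.08), the platelet-derived growth factor gene Pdgfb by 0.92 (SE 0.05) and the chemokine gene Ccl4 by 0.91 (SE 0.05). The gene called lower was the matrix protease gene Mmp2 (−0.55, SE 0.11), named with its value known. Inhba, which encodes the activin A subunit, was at 5.52 ± 0.36 with the antibody and 6.08 ± 0.10 with IgG (limma adjusted p = 0.0593), and the chemokine gene Cxcl2 was at 5.22 ± 0.23 and 4.91 ± 0.16 (SD, n = 3 each; limma adjusted p = 0.148). Without antibody replicate 2, both were called, with changes of −0.75 for Inhba (limma adjusted p = 0.00481) and 0.44 for Cxcl2 (0.0382).

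**Figure D4:**
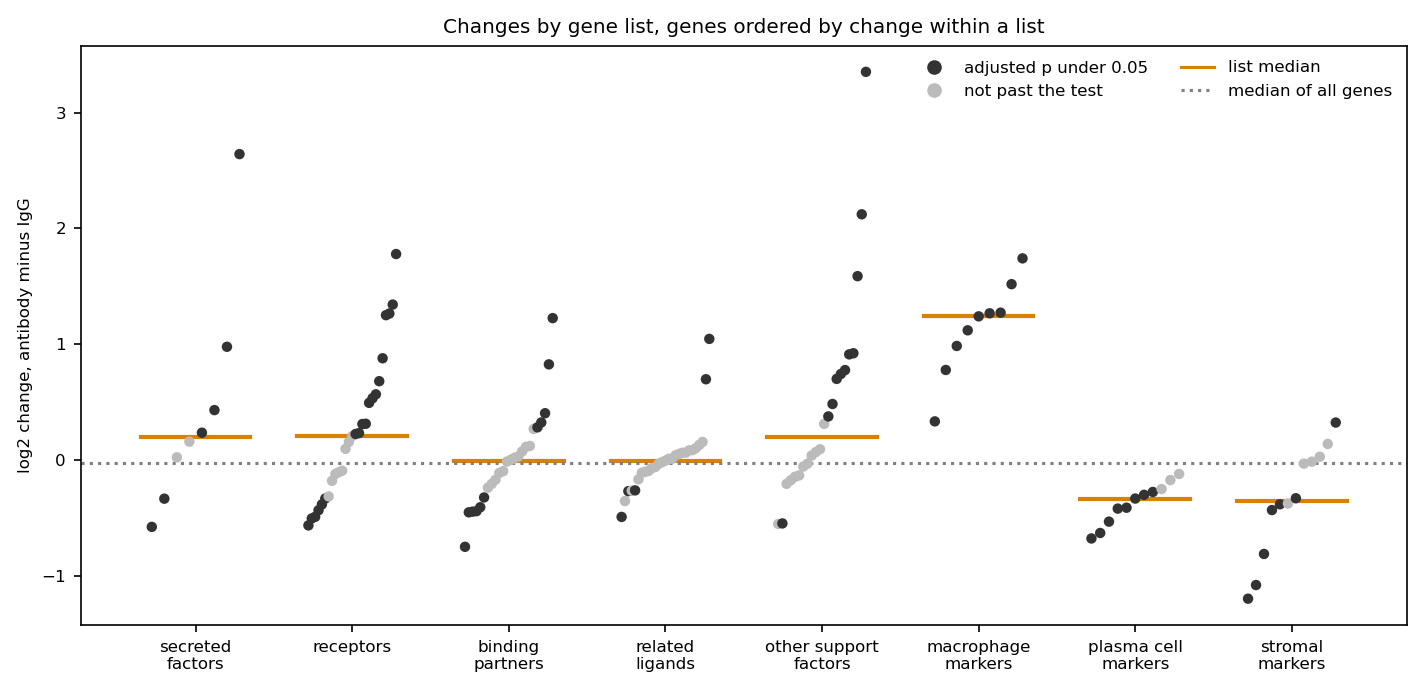
Log2 change, antibody minus IgG, of every measured gene in the 8 gene lists (dark points: adjusted p under 0.05; grey: not past the test; orange: list median; dotted: median of all genes, −0.02). The secreted factors spread from −0.58 for Il10 to 2.64 for Nrg1, while all 9 macrophage markers lie above 0 and all 11 plasma cell markers below it.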

How the data were processed

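The authors deposited intensity values on a linear scale for 41345 probe sets on 6 whole-transcript mouse arrays. Per the submitters' processing notes, the tools were RMA and limma, but neither versions nor roles are recorded. RMA as usually run makes array distributions alike, which hides a shift of most genes. The genome build behind the values is not given in the sources used here.

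Values were taken as log2. Of the probe sets, 23521 had 1 symbol in the platform annotation, 1814 had several and 16010 had none, and only the first kind was used. For 1082 genes with several probe sets, the one with the highest mean was used. The conditions were set against each other gene by gene in limma 3.58.1 under R 4.3.3 (functions lmFit and eBayes, 3 against 3 arrays, 4 residual degrees of freedom, two-sided) with Benjamini-Hochberg adjustment over 22180 genes. With 3 against 3 arrays an exact permutation test cannot go below 0.1, so none is given. SE is limma's moderated standard error. Summed levels of marker lists are sums of linear intensities per array. The number of arrays, 3 a condition, limits the precision.

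The members, gene lists and tests were chosen with earlier results of these data known. Named by rule were all measured members and, from each related list, up to 5 called genes with the largest change and non-overlapping conditions and up to 2 uncalled genes with the highest level, and the 2 highest markers of macrophages, plasma cells and stroma. Lists are described by counts and medians, with no test of their own.

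The fit was checked on simulated data with known changes in 200 of 22180 genes, a smaller share than was called here. It found 53% of changes of 0.5 and 87% of changes of 1 on the log2 scale. Of its calls, 4.61% were false. Small changes can therefore go uncalled. Alternatives covered variance models, scaling, filters on dim genes, the choice of probe set, a block for the replicate number and fits without each array in turn. Figures used matplotlib 3.10.9 in Python 3.11.15.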

Additional observations from a re-analysis of the deposited data

How the results depend on the processing

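Over 17 alternative fits, the changes of Nrg1, Hgf, Igf1, Vegfa and Il10 kept their direction and stayed past the threshold, with adjusted p at most 0.0449 for Vegfa. Their changes ran from 2.56 to 2.75 for Nrg1, 0.94 to 1.07 for Hgf, 0.41 to 0.55 for Igf1, 0.22 to 0.35 for Vegfa and −0.61 to −0.46 for Il10. Tnfsf13b was called in none of these limma fits (0.08 to 0.21, adjusted p from 0.119 to 0.502). Il6 was tested in 14 of them, since filters on dim genes removed it, and was not called (−0.04 to 0.08, adjusted p from 0.396 to 0.965). Cxcl12 was no longer called under cyclic loess (−0.26, adjusted p = 0.054) or without any of the 3 IgG replicates. Without each array in turn its change ran from −0.40 to −0.25 and adjusted p from 0.0175 to 0.0762. The number of secreted factors called lower was therefore 1 in place of 2 under cyclic loess, and 1 to 2 without each array in turn, while the number called higher was 4 in all 17. The cause was not tested.

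Under cyclic loess, 2346 genes in place of 3548 were lower in all, and 4 related ligands in place of 2 were higher. Other support factors called lower numbered 2 in place of 1 with an intensity trend, with either percentile filter and with the filter at the guide, and 1 to 2 without each array in turn. The second gene was Inhba, with adjusted p from 0.00481 to 0.0416 in those fits. Deviations of same-numbered arrays from their condition means correlated at −0.05 to 0.03, and not every array correlated best with its own number, so the numbers were not taken as pairs. With the replicate number as a block, 2569 genes were higher and 2980 lower, all counts of the secreted factors stood as before, and 10 in place of 13 receptors were higher. Of 66 other genes followed, 55 kept their side of the threshold in every fit that tested them, 11 did not in at least 1, and 0 reversed. Genes removed by a filter on dim genes, such as Erbb4 and Tnfrsf17, were tested in fewer than 17 fits. The 11 were Il6st, Itgb1, Itgb3, Cd44, Itga4, Adam10, Egf, Hbegf, Vegfb, Inhba and Cxcl2.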

Other observations

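Some probe sets gave the same or nearly the same value on several arrays. The SD over the 3 antibody arrays was 2e-04 for both Hgf and Pdgfb, against a median within-group SD of 0.09 over all genes. It was 0 as rounded for Prdm1 and Vwf, and over the 3 IgG arrays for Lum. Csf1r and Itgam had equal values on antibody replicates 1 and 2. Erbb3 read 5.87 on these 2 arrays and on IgG replicate 1. Ties of this kind lower the within-group SD, and their number and cause were not tested. The SE of 0.05 for the Hgf change includes limma's moderation and the spread of the IgG arrays. Among the secreted factors, Nrg1 varied most within a condition, with a pooled SD of 0.15, and Igf1 least, at 0.04.

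The promoter table held a pair of start sites for Tnfsf13b, and the second window carried an interferon-stimulated response element match that began at −16, with Tnfsf13b itself not called. The Il6 window held an NF-kB match at −44, a motif present in 1.47% of promoters, on arrays where Il6 lay below the guide. No STAT match was found in any of the 12 windows of the secreted factors, a motif present in 8.3% of promoters.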
